A study of Mus musculus with 8 samples.

Results

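Hypoxia-inducible factors (HIFs) and the glycolytic genes they control were examined in whole mouse lung after hypoxia. The group of genes is a list of 34 symbols named for this work, 12 of them glycolytic enzymes from hexokinase to lactate dehydrogenase, 4 genes of glucose entry and its regulation, 16 HIF targets outside glucose breakdown and the 2 alpha subunits Hif1a and Epas1. All 34 were found among the 23284 genes of the deposited table, Pkm under its older symbol Pkm2. A gene counted as tested when its value reached 10 in at least 4 libraries, and 33 of the 34 passed. Car9, a carbonic anhydrase gene, was left out with at most 15.9 scaled reads.

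The recipients were wild-type (WT) C57BL/6 mice, and every animal received a bone marrow transplant and spent 3 days in hypoxia before the lungs were taken. For 4 libraries the marrow came from donors lacking the neuronal, inducible and endothelial nitric oxide synthases (n/i/eNOS-/-, called NOS-null marrow). For the other 4 libraries the marrow was WT. The labels do not say whether each library is a separate animal. The lung tissue itself was WT in both groups, the share of donor cells was not measured here, and no lung kept in normal air is part of the comparison, so the values below give differences between marrow groups under hypoxia.

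Cells keep HIF alpha proteins low in oxygen because prolyl hydroxylases of the Egln family mark them for destruction by the von Hippel-Lindau protein. When oxygen falls, the alpha subunit persists, pairs with Arnt and binds the core letters ACGTG or GCGTG in the DNA of its target genes. The targets raise glucose uptake and glycolysis, hold pyruvate away from mitochondria, and include feedback genes such as the Egln hydroxylases. In the lung, Hif1a and Epas1 (HIF-2 alpha) are both known for their part in the vascular response to hypoxia. Since oxygen acts mainly on the alpha proteins, RNA of Hif1a and Epas1 does not give the amount of active factor.

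The promoters show how the core letters are spread over these genes. The bases before the start of transcription are printed for Tpi1, the enzyme gene called lower in the comparison, for Ldha and Pgk1 as further glycolytic genes, and for P4ha1 and Ddit4 as targets outside glycolysis that lay on opposite sides of 0. Sequences are from RefSeq (GRCm38.p6, the assembly also named mm10), 5′ to 3′ on the strand of the gene, without bases inside annotated exons, and capitals mark each core match on either strand. The Tpi1 print therefore covers only bases 250 to 139 before the start, and the Ddit4 print bases 250 to 65.
Tpi1 (chr6:124814297-124814408, minus strand): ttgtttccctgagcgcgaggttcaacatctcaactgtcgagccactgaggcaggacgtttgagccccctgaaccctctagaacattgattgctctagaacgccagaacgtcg
Ldha (chr7:46845554-46845803, plus strand): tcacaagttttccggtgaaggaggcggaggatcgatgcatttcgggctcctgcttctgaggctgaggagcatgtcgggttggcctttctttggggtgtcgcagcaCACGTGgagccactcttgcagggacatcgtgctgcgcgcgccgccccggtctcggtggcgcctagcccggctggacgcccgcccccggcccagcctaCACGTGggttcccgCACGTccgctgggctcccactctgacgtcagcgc
Pgk1 (chrX:106186850-106187099, plus strand): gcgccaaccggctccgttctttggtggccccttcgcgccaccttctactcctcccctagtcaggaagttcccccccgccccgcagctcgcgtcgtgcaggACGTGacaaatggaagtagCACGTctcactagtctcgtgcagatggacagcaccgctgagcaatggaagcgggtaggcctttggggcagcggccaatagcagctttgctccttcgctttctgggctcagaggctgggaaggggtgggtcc
P4ha1 (chr10:59323046-59323295, plus strand): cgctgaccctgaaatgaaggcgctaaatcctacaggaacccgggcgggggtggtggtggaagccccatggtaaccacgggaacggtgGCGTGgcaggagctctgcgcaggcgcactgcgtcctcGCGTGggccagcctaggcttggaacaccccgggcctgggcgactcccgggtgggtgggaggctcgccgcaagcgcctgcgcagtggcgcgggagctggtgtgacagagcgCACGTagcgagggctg
Ddit4 (chr10:59951835-59952020, minus strand): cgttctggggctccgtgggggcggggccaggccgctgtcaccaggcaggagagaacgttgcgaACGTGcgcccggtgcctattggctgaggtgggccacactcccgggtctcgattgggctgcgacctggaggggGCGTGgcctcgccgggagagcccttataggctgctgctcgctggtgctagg

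The letters ACGTG and GCGTG and their reverse complements CACGT and CACGC were searched in the 250 bases before the start, and CACGTG, which holds ACGTG on both strands, counted as 1 site. Ldha held 3 sites, 2 of them CACGTG, Pgk1 held 2, P4ha1 held 3 and Ddit4 held 2, while Tpi1 held 0 in its 250-base window. RefSeq windows were matched for 31 of the 34 genes, all but Epas1, Ndrg1 and Bhlhe40. With 1 window per gene, 24 of these 31 (77.4%) held a site, against 38.6% of 27025 genes. The share was 7 of 12 (58.3%) for glycolytic enzymes and 12 of 14 (85.7%) for the other HIF targets. These shares depend on the window, the first listed of each gene. The glycolytic Hk1, Aldoa and Pkm and the other target Mxi1 had no site there but held sites in further windows. Base composition was not matched, and a match of 5 letters does not show binding.

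The 8 libraries summed to 7767065 to 8625142 scaled reads, which are read counts that the authors divided by a size factor per library. These sums follow from that scaling, so sequencing depth per library is unknown here. Markers of lung cells were high in all 8 libraries, with 12994 to 22501 FPKM of Sftpc (alveolar type 2 cells), 1753 to 2014 of Ager (alveolar type 1 cells) and 303 to 399 of Pecam1 (endothelium). Over all genes 1 principal component held 49.2% of the variance, with NOS-null marrow replicates 1 and 2 at −57.7 and −32.3, replicates 3 and 4 at −3.35 and −1.40, and WT marrow between 17.7 and 27.2. NOS-null marrow replicates 1 and 2 thus lay farthest from WT marrow, with replicates 3 and 4 in between. Results are given below with and without replicates 1 and 2. The choice to omit them came from these same data and left 2 NOS-null marrow libraries against 4 WT marrow libraries. The 8 neutrophil marker genes summed to 89808 scaled reads in NOS-null marrow replicate 1, 9278 in replicate 2, and 4037 and 5623 in the other two. With WT marrow the sum ran from 1616 to 3884. Of the 8, Camp was at 0 in 1 library. The 6 smooth muscle markers summed to 19716 to 23069 with NOS-null marrow and 31777 to 36011 with WT marrow, and the 7 erythroid markers in the table to 22781 to 30179 and 11287 to 13844. Acta2 and Tagln make up most of the smooth muscle sum, and 4 of its 6 genes were lower without overlap, all but Myh11 and Mylk. The 4 B cell markers summed to 68.7, 218, 816 and 809 with NOS-null marrow and 1112 to 2246 with WT marrow, lowest in replicates 1 and 2 of the former. The 4 NK cell markers summed to 81.2 to 154 and 211 to 307. None of the smooth muscle, erythroid, B cell and NK cell markers was at 0 in any library. In RNA of whole lung, fewer cells of a type and less RNA per cell cannot be told apart.

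Few HIF and glycolysis genes passed the test between the marrow groups. Tpi1, which encodes triosephosphate isomerase, fell, and none of the other 32 tested genes passed. The test was limma on log2(scaled reads + 1), NOS-null marrow minus WT marrow, with Benjamini-Hochberg adjustment over all 14008 tested genes and a threshold of 0.05. Of all tested genes 2.18% were called lower and 1.87% higher (4.05% in either direction), so 1 called gene lower and 0 higher among 33 is near the background. At an unadjusted p under 0.05, 5 of the 33 genes were higher and 8 lower, against 13.3% of all tested genes in each direction. The 4 and 4 values did not overlap in 9 of the 33, 2 higher (7.82% of all tested genes) and 7 lower (9.29%). The median log2 change of the 33 genes was 0.00, the same as that of all tested genes at this rounding. The labels number the samples within each group and say no more about their origin, so the spread behind the p-values may be technical.

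**Figure D1:**
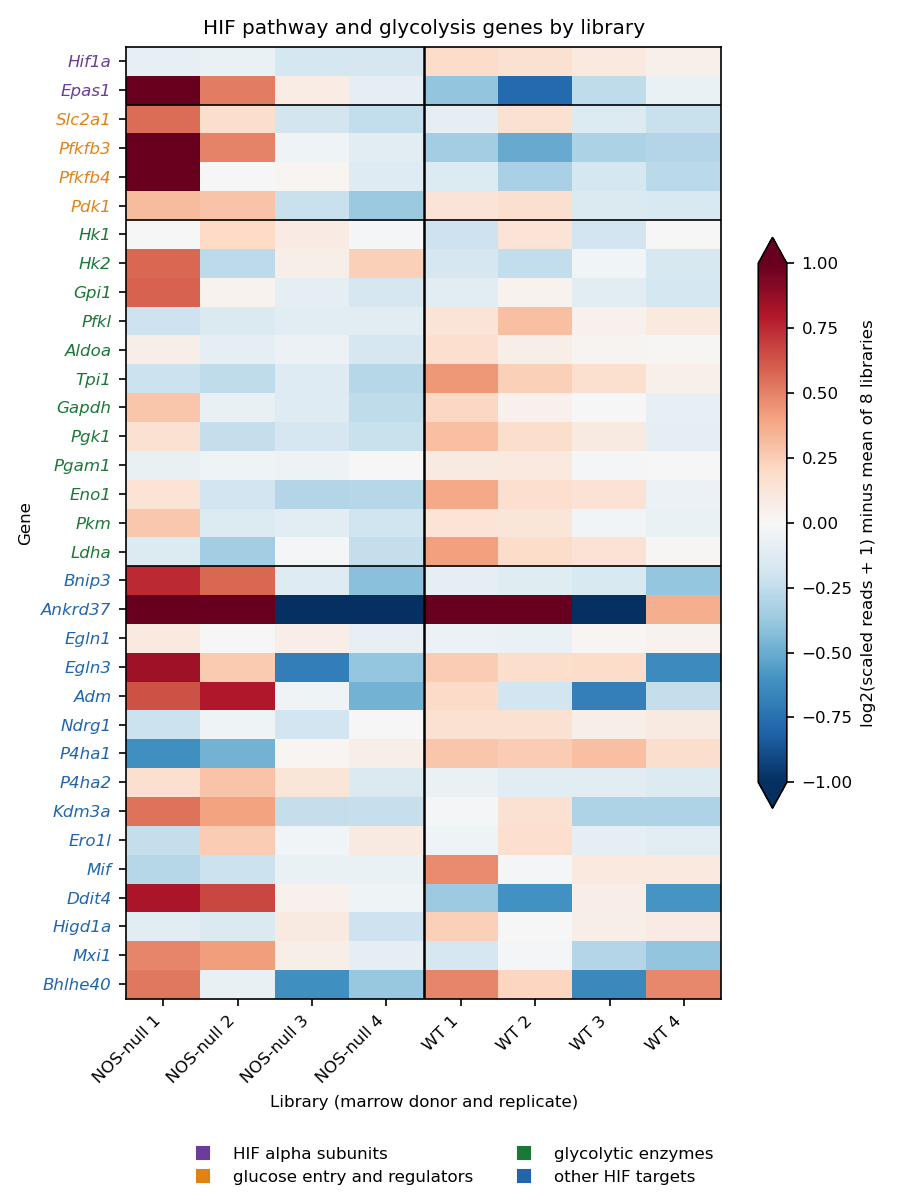
Heat map of the 33 tested genes (rows, coloured by class) in the 8 libraries (columns). Colour gives log2(scaled reads + 1) relative to the mean of that gene in all 8, cut at −1 and 1. Glycolytic enzymes from Pfkl to Ldha are mostly bluer with NOS-null marrow, while Epas1, Pfkfb3, Bnip3, Ddit4 and Kdm3a are reddest in NOS-null marrow replicates 1 and 2.

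The alpha subunits lay on opposite sides of 0. Hif1a stood at 1031, 1043, 970 and 976 scaled reads in NOS-null marrow replicates 1 to 4 and at 1243, 1215, 1173 and 1135 in WT marrow replicates 1 to 4. Every NOS-null marrow library was below every WT marrow library, and the spread within each group was small. The means were 1005 ± 37.6 and 1191 ± 47.3 (SD, n = 4 each, as for all means here), a log2 change of −0.25 (SE 0.07, limma adjusted p = 0.0602), which did not pass.

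Epas1 stood at 22425, 15938, 11778 and 10506 scaled reads with NOS-null marrow and at 8545, 6544, 9418 and 10682 with WT marrow. NOS-null marrow replicates 1 and 2 were well above all others, while replicates 3 and 4 were near the top of the WT marrow range, and the groups overlapped. The log2 change was 0.74 (SE 0.23, limma adjusted p = 0.0835), and 0.36 without NOS-null marrow replicates 1 and 2. Per length, Epas1 RNA was the more abundant of the alpha subunits in every library, at 351 ± 124 and 204 ± 40.3 FPKM against 26.3 ± 0.984 and 31.2 ± 1.24 for Hif1a. The ratio of Epas1 to Hif1a FPKM within a library was 9.53 to 19.2 with NOS-null marrow and 4.77 to 8.33 with WT marrow, so the ratios did not overlap. The ratio was looked at after the values of both genes were seen and was not tested.

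None of the 4 genes of glucose entry and its regulation passed, and the log2 changes ran from 0.00 to 0.73. Slc2a1, the glucose transporter GLUT1, stood at 646, 494, 385 and 369 scaled reads against 411, 487, 397 and 375, with NOS-null marrow replicate 1 highest and the groups overlapping (log2 change 0.15, 95% interval −0.22 to 0.52, limma adjusted p = 0.592). Pdk1, a kinase that keeps pyruvate out of the mitochondrial dehydrogenase, showed a log2 change of 0.00 (95% interval −0.36 to 0.37), negative when libraries were centred on their median gene. Without NOS-null marrow replicates 1 and 2 the log2 changes turned to −0.14 for Slc2a1 and −0.30 for Pdk1. Both are classic HIF targets. Both were high in NOS-null marrow replicates 1 and 2 against 3 and 4, at 464 and 454 against 318 and 287 scaled reads for Pdk1.

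Pfkfb3 and Pfkfb4 encode enzymes that make fructose 2,6-bisphosphate, the activator of phosphofructokinase. Pfkfb3 stood at 1328, 862, 593 and 564 scaled reads with NOS-null marrow and at 479, 431, 492 and 499 with WT marrow. The groups did not overlap, and the 4 WT marrow libraries lay close together while NOS-null marrow replicate 1 was highest. The log2 change was 0.73 (SE 0.23, limma adjusted p = 0.0882), and 0.29 without NOS-null marrow replicates 1 and 2. Pfkfb4 stood at 715, 353, 359 and 323 against 322, 282, 312 and 292 scaled reads, again without overlap, although 323 and 322 nearly touch. Its log2 change of 0.45 (SE 0.22, limma adjusted p = 0.21) was 0.19 without NOS-null marrow replicate 1. That library also held the highest sum of neutrophil markers, and the part of neutrophils in these values was not tested.

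Among the 12 glycolytic enzymes, Hk1, Hk2 and Gpi1, which carry out the opening steps from glucose to fructose 6-phosphate, had log2 changes of 0.13, 0.30 and 0.18. For Gpi1, omitting NOS-null marrow replicate 1 gave 0.017, and omitting replicates 1 and 2 gave −0.039. The 9 enzymes from phosphofructokinase to lactate dehydrogenase all had negative log2 changes, from −0.44 to −0.08. This cut of the class was not set beforehand. Of the whole class 9 of 12 were below 0, against 49.9% of all tested genes, and the median of the 12 enzymes was −0.11. These 9 enzymes were below 0 under each alternative, including each rescaling and every single-library omission. The alternatives reuse the same libraries and are no separate evidence. Most of the single changes were small against the spread between libraries, and only Tpi1 passed.

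**Figure D2:**
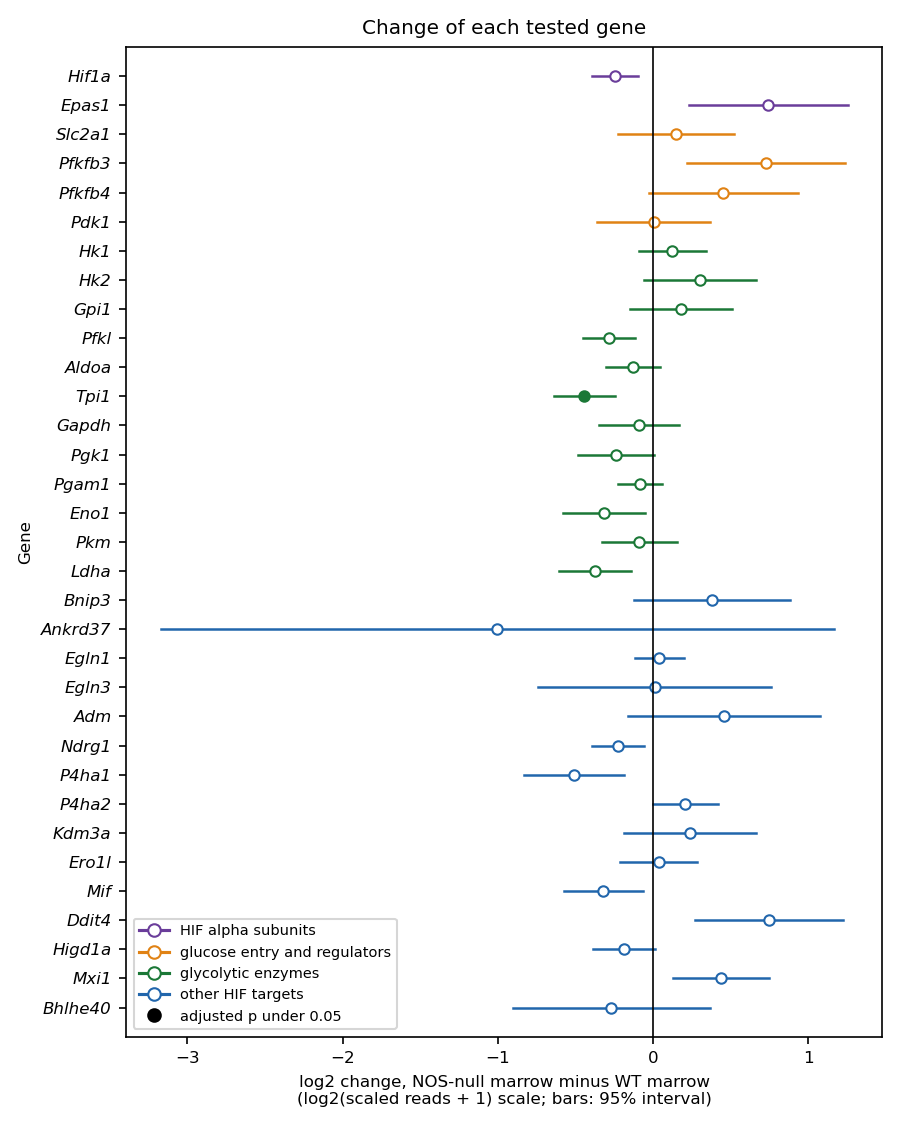
Log2 change of each of the 33 tested genes from WT to NOS-null marrow, computed on log2(scaled reads + 1), with 95% intervals from the limma fit and n = 4 per group. The filled point, Tpi1, is the gene with an adjusted p under 0.05, and the interval of Ankrd37 is the widest.

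Tpi1 (chromosome 6, 124810586 to 124814158, GRCm38.p6) encodes the isomerase that interconverts the products of aldolase. It stood at 1463, 1429, 1556 and 1400 scaled reads in NOS-null marrow replicates 1 to 4 and at 2294, 2013, 1906 and 1764 in WT marrow. All 4 NOS-null marrow libraries lay within a narrow band below the WT marrow libraries, which were more spread. The means were 1462 ± 67.8 and 1994 ± 224, a log2 change of −0.44 (SE 0.09, limma adjusted p = 0.0296). Tpi1 missed the threshold when NOS-null marrow replicate 2 was omitted (limma adjusted p = 0.0896) and when WT marrow replicate 1, 2 or 3 was (0.0825, 0.0791 and 0.0707). Its log2 change stayed between −0.50 and −0.37 with any 1 library omitted. With NOS-null marrow replicates 1 and 2 omitted together it was −0.43 (limma adjusted p = 0.0865), so its size did not rest on these libraries. Only 2.48% of the 75-base windows of the Tpi1 transcript occur in another annotated gene.

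Ldha and Pfkl were the next enzymes by p. Ldha, the lactate dehydrogenase subunit that turns pyruvate into lactate, stood at 4777, 4128, 5191 and 4465 scaled reads with NOS-null marrow and at 6976, 5976, 5830 and 5301 with WT marrow. The groups did not overlap, though NOS-null marrow replicate 3 came close to WT marrow replicate 4. The means were 4640 ± 453 and 6021 ± 700 (log2 change −0.37, SE 0.10, limma adjusted p = 0.0646). Pfkl, the liver type of phosphofructokinase, stood at 862, 899, 925 and 922 scaled reads against 1085, 1222, 1026 and 1065. Here too every NOS-null marrow library was below every WT marrow library, and the log2 change of −0.28 (SE 0.07, limma adjusted p = 0.0578) did not pass. Neither passed with any 1 library omitted.

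The remaining enzymes of lower glycolysis differed less or overlapped. Pgk1, phosphoglycerate kinase, stood at 1868 ± 251 against 2200 ± 253 scaled reads (log2 change −0.24, limma adjusted p = 0.203). Without NOS-null marrow replicate 1, which at 2240 was the highest of its group, the change was −0.33. Aldoa, an aldolase, stood at 6832 ± 447 against 7471 ± 365 (log2 change −0.13). Gapdh, Pgam1 and Pkm, which act before and after phosphoglycerate kinase, had log2 changes of −0.09, −0.08 and −0.09. The 95% interval of Gapdh ran from −0.35 to 0.17 and that of Pgam1 from −0.23 to 0.06, so larger changes lie outside these intervals.

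Eno1, which encodes the enolase of most tissues, has a near-identical copy that matters for its value. Eno1 stood at 2146, 1701, 1593 and 1596 scaled reads with NOS-null marrow and at 2532, 2184, 2154 and 1869 with WT marrow (log2 change −0.32, SE 0.12, limma adjusted p = 0.131). NOS-null marrow replicate 1 overlapped the WT marrow range, and without it the change was −0.41 (limma adjusted p = 0.0469). Of the 75-base windows of the Eno1 transcript, 64.2% also occur in Eno1b, a gene made by retrotransposition that the table lists as Gm5506. Gm5506 stood at 287, 111, 73.0 and 101 scaled reads with NOS-null marrow and at 4.97, 27.2, 4.93 and 6.62 with WT marrow. It rose, with no overlap (143 ± 97.3 against 10.9 ± 10.9, log2 change 3.74, SE 0.54, limma adjusted p = 0.00964), and passed with any 1 library omitted. Of the 75-base windows of its own transcript, 79.6% occur in another gene and 68.1% in the far more abundant Eno1. The value of Gm5506 is therefore uncertain as well. With the scaled reads of both genes added the log2 change was −0.22 (limma adjusted p = 0.311), a smaller difference than for Eno1 alone.

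**Figure D3:**
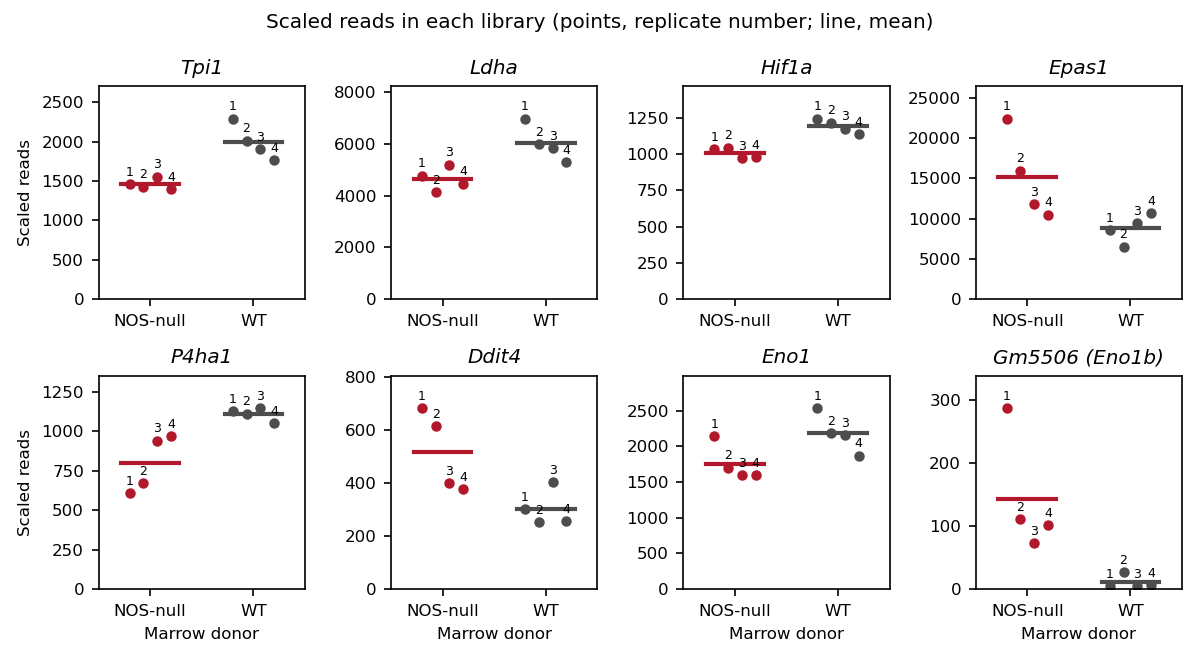
Scaled reads in each library for Tpi1, Ldha, Hif1a, Epas1, P4ha1, Ddit4, Eno1 and Gm5506 (Eno1b), with replicate numbers at the points, lines at the group means (n = 4) and axes from 0. Tpi1, Ldha, Hif1a and P4ha1 are lower in all 4 NOS-null marrow libraries, and Gm5506 is between 73.0 and 287 there against at most 27.2 with WT marrow.

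Levels along the pathway were compared per length, in FPKM. Aldoa was the most abundant enzyme RNA in both groups (626 ± 40.9 and 685 ± 33.4 FPKM with NOS-null and WT marrow). Gapdh, Ldha and Pkm followed at 462 ± 77.0, 391 ± 38.2 and 327 ± 50.7 FPKM with NOS-null marrow and at 488 ± 41.7, 507 ± 58.9 and 345 ± 24.5 with WT marrow. Gapdh and Ldha do not differ beyond their spread in either group. A middle set of Tpi1, Pgk1, Eno1, Gpi1 and Pgam1 had group means between 93.5 and 171 FPKM. The listed genes of the rate-controlling steps at the entrance were far lower. Pfkl stood at 30.6 ± 0.986 and 37.4 ± 2.90 FPKM, Hk1 at 18.7 ± 1.32 and 17.2 ± 1.99, and Hk2 at 3.70 ± 0.901 and 2.94 ± 0.188. Genes outside the list add to these steps, since Pfkl was only 1.49 to 2.07 times Pfkp, a further phosphofructokinase gene. Hk1 was above Hk2 in every library, by 3.66 to 7.54 times.

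**Figure D4:**
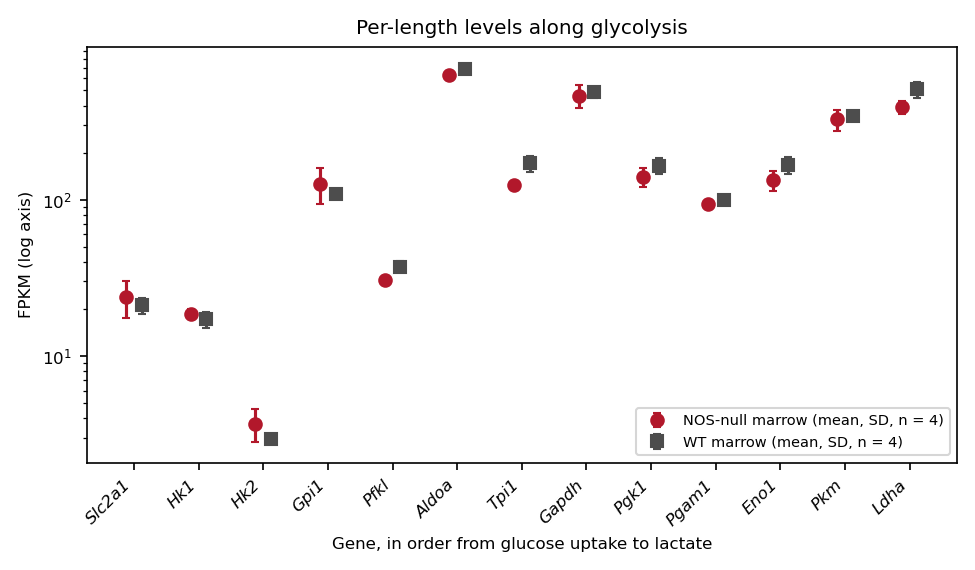
FPKM of Slc2a1 and the 12 glycolytic enzymes in pathway order on a log axis, as means with SD for n = 4 libraries per group. Hk2 is lowest and Aldoa highest in both groups, and Pfkl, Tpi1 and Ldha show gaps between the SD bars of the groups.

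Several values of the enzymes carry reads that could come from copies elsewhere in the genome. Over 10% of 75-base windows occurred in another annotated gene for 7 of the 34 genes, with 80.3% for Gapdh, 67.5% for Pgk1, 65.4% for Eno1, 44.5% for Mif, 40.6% for Pgam1, 19.6% for Pkm and 15.3% for Bnip3. Their values are therefore uncertain. The median log2 change of the glycolytic enzymes was −0.13 without those among the 7.

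HIF targets outside glycolysis went both ways, with a median log2 change of 0.04 over the 15 tested, 6 below 0 and 9 above, and none passed with limma (3 higher and 3 lower at an unadjusted p under 0.05, against 13.3% of all tested genes each way). P4ha1, the collagen prolyl 4-hydroxylase subunit, stood at 606, 668, 939 and 968 scaled reads with NOS-null marrow and at 1127, 1110, 1144 and 1048 with WT marrow. All 4 NOS-null marrow libraries were below the WT marrow libraries, which lay close together, and replicates 1 and 2 were lowest. The means were 795 ± 185 and 1107 ± 41.7 (log2 change −0.51, SE 0.14, limma adjusted p = 0.0686), and P4ha1 passed without NOS-null marrow replicate 3 or 4 (0.0476 and 0.0372). With replicates 1 and 2 omitted its change was −0.22 (limma adjusted p = 0.21). Its sister subunit P4ha2 stood at 618, 672, 599 and 499 against 528, 513, 512 and 501 scaled reads (log2 change 0.21, limma adjusted p = 0.187). The ratio of P4ha1 to P4ha2 FPKM was 0.53, 0.54, 0.85 and 1.05 in NOS-null marrow replicates 1 to 4 and 1.13 to 1.21 with WT marrow. The groups did not overlap, but this ratio was not set beforehand and was not tested.

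Ndrg1, Mif and Higd1a were the next targets on the low side. Ndrg1, a stress-responsive gene of differentiation, stood at 486, 547, 495 and 564 scaled reads against 628, 627, 587 and 600. The groups did not overlap, and the log2 change was −0.23 (SE 0.08, limma adjusted p = 0.105). Mif, macrophage migration inhibitory factor, stood at 302 to 351 against 362 to 511 scaled reads (log2 change −0.32, limma adjusted p = 0.116). Higd1a, a mitochondrial protein gene induced by low oxygen, had a log2 change of −0.19 with overlapping groups.

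Ddit4, Mxi1 and Bnip3 lay on the high side. Ddit4 (REDD1), a brake on mTOR signalling, stood at 683, 616, 399 and 376 scaled reads with NOS-null marrow and at 301, 254, 405 and 257 with WT marrow. NOS-null marrow replicates 1 and 2 were above all others, while WT marrow replicate 3 exceeded NOS-null marrow replicates 3 and 4. The log2 change was 0.75 (SE 0.21, limma adjusted p = 0.0698), and 0.37 without NOS-null marrow replicates 1 and 2.

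Mxi1, a partner of Max that opposes Myc, stood at 703, 668, 522 and 468 scaled reads against 444, 494, 409 and 381. Only NOS-null marrow replicate 4 fell within the WT marrow range, and the log2 change was 0.44 (SE 0.14, limma adjusted p = 0.0906), and 0.20 with NOS-null marrow replicates 1 and 2 omitted. Bnip3, a gene of mitochondrial removal, stood at 3398, 3015, 1853 and 1514 against 1893, 1862, 1820 and 1554 scaled reads. Its log2 change was 0.38 (limma adjusted p = 0.297) and turned to −0.09 without NOS-null marrow replicates 1 and 2. With NOS-null marrow replicate 4 omitted, 4 of the 33 genes passed as higher (2.93% of all tested genes) and 2 as lower (2.76%, 5.7% in either direction). The higher ones were Epas1, Pfkfb3, Ddit4 and Mxi1 (limma adjusted p = 0.0475, 0.0482, 0.0442 and 0.0442), and the lower ones Tpi1 and P4ha1.

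The feedback hydroxylase Egln1 was level, at 757 ± 41.8 against 736 ± 26.7 scaled reads (log2 change 0.04, 95% interval −0.12 to 0.20). Egln3, a hydroxylase that HIF induces strongly in many cells, was low at 22.7 to 67.7 scaled reads, with a log2 change of 0.01 that was negative when libraries were centred on their median gene (95% interval −0.74 to 0.76). It ran from −0.27 to 0.24 with any 1 library omitted and was −0.53 with NOS-null marrow replicates 1 and 2 omitted. Ero1l, an oxidase of protein folding, had a log2 change of 0.04. Kdm3a, a histone demethylase, and Adm, adrenomedullin, a dilator peptide, had log2 changes of 0.24 and 0.46, and both turned negative (−0.11 and −0.03) without NOS-null marrow replicates 1 and 2.

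Ankrd37 and Bhlhe40 varied widely within the groups. Ankrd37, an ankyrin repeat gene known as a HIF target, stood at 664, 459, 64.1 and 31.5 scaled reads with NOS-null marrow and at 889, 463, 85.7 and 290 with WT marrow. Both groups held high and low libraries, and the highest value was 28.2 times the lowest. The SD of its log2 values among the 4 WT marrow libraries was larger than that of 99.8% of tested genes. Its log2 change of −1.0 had a 95% interval of −3.17 to 1.17 (limma adjusted p = 0.531), which takes in large differences of either sign. It ran from −1.69 without NOS-null marrow replicate 1 to −0.24 without replicate 4, and was −2.80 with replicates 1 and 2 both omitted. Bhlhe40, a repressor of transcription, stood at 1055, 693, 478 and 563 against 1027, 847, 466 and 1021 (log2 change −0.27, limma adjusted p = 0.569), with −0.53 to −0.11 when any 1 library was omitted and −0.63 when NOS-null marrow replicates 1 and 2 were.

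Glycolytic enzymes were set beside the other HIF targets library by library. The mean log2 deviation of the 12 enzymes from the 8-library mean was 0.12, −0.13, −0.08 and −0.14 in NOS-null marrow replicates 1 to 4 and 0.15, 0.11, 0.02 and −0.04 in WT marrow replicates 1 to 4. NOS-null marrow replicate 1 therefore lay in the WT marrow range and the other 3 below it. For the 15 other targets the values were 0.33, 0.25, −0.23 and −0.34 with NOS-null marrow and 0.22, 0.07, −0.19 and −0.10 with WT marrow. Here the NOS-null marrow libraries lay on both outer sides of the WT marrow range. Within a library the enzymes were below the other targets in NOS-null marrow replicates 1 and 2 (differences of −0.21 and −0.38) and above them in replicates 3 and 4 (0.14 and 0.20), while WT marrow ran from −0.07 to 0.21. Ankrd37 set much of this pattern, and its omission was chosen after its values were seen. Without it the other targets stood at 0.24, 0.19, −0.12 and −0.17 with NOS-null marrow, with replicate 3 inside the WT marrow range of −0.13 to 0.09. The difference between the classes was then −0.13, −0.32, 0.03 and 0.03 with NOS-null marrow and 0.06 to 0.13 with WT marrow, so the groups overlapped with Ankrd37 and did not without it. No test was made of these class means.

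**Figure D5:**
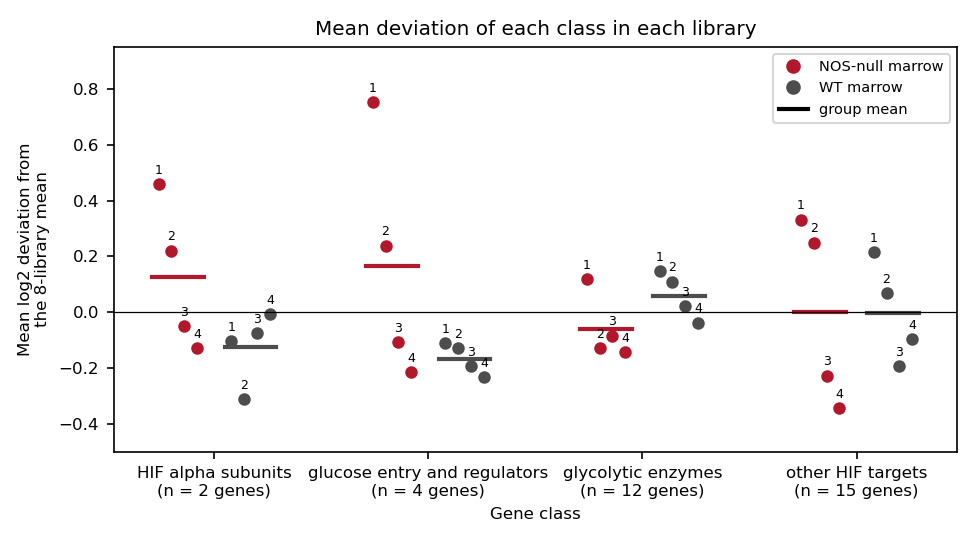
Mean log2 deviation from the 8-library mean for each class of genes (x axis, with the number of tested genes) in each library (points with replicate numbers), with lines at group means. NOS-null marrow replicates 1 and 2 are highest for the alpha subunits, regulators and other HIF targets, while for glycolytic enzymes replicates 2 to 4 lie below the 4 WT marrow libraries.

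NOS-null marrow replicates 1 and 2 were both above replicates 3 and 4 in 17 of the 33 genes and both below in 3, against 27.0% of all tested genes each way. By class this was 2 of 2 alpha subunits, 3 of 4 regulators, 9 of 15 other targets and 3 of 12 glycolytic enzymes. Without these 2 libraries 23 of the 33 genes were below 0, with a median of −0.15. The medians were then −0.22 for the glycolytic enzymes and −0.11 for the other targets, against 0.00 over all tested genes, and 0 of the 33 passed with limma, while 0.692% of all tested genes were called higher and 0.6% lower (1.29% in all). At an unadjusted p under 0.05, 3 of the 33 were higher and 12 lower, against 8.13% and 8.51% of all tested genes. Neutrophil markers were highest and B cell markers lowest in these libraries. Monocyte and interstitial macrophage markers summed to 6381 and 7082 there, against at most 4083 elsewhere. T cell markers summed to 329 and 785, against at most 285, and alveolar macrophage markers, mostly Chi3l3, to 24442 and 17812, against at most 11791. By gene, replicates 1 and 2 were both above 3 and 4 in 3 of 7, 4 of 5 and 4 of 7 of these lists. Siglec5 and Marco, both alveolar macrophage markers, were lower with NOS-null marrow, without overlap. Their log2 changes were −1.52 (limma adjusted p = 0.00248) and −2.81 (limma adjusted p = 0.0585), while the other 5 genes of that list had positive changes. The mean log2 deviation of these 7 genes was 0.09 for NOS-null marrow replicate 1, inside the WT marrow range (−0.10 to 0.28). Replicate 2, at 0.30, lay just above that range. The part of all these cell types in the class values was not tested. The summed smooth muscle and NK cell markers were lower in all 4 NOS-null marrow libraries, and their part in the lower values of enzymes such as Tpi1 was likewise not tested.

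Further genes of the same pathways were read from the same fit. Of 78 further genes, 74 were tested, 5 rose (1.87% of all tested genes did), 3 fell (2.18%) and 66 did not pass. Of 14 tested genes that control HIF or act with it, Ep300, a histone acetyltransferase that HIF recruits, rose from 542 ± 64.6 to 798 ± 113 scaled reads (log2 change 0.55, SE 0.12, limma adjusted p = 0.0361). Vhl, the von Hippel-Lindau gene, stood at 329 ± 9.28 against 327 ± 24.4. Hif3a, an alpha subunit that can oppose the others, stood at 127, 105, 28.6 and 29.4 against 9.94, 12.2, 26.6 and 21.7 scaled reads, with no overlap (log2 change 1.77, limma adjusted p = 0.0731). Vhl and Hif3a were picked after their values were seen. Ep300 missed the threshold when any of 4 libraries was omitted, NOS-null marrow replicate 2 and WT marrow replicates 1 to 3 (limma adjusted p up to 0.114).

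Of 22 further glycolysis genes tested, 3 rose and 0 fell, against 1.87% and 2.18% of all tested genes. At an unadjusted p under 0.05, 5 were higher and 0 lower, against 13.3% each way. The 3 called genes were Gm5506, whose value is uncertain as given above, Bpgm and Pdk2. Bpgm, the mutase that makes 2,3-bisphosphoglycerate in red cells, stood at 1653, 1636, 1335 and 1579 scaled reads with NOS-null marrow and at 914, 787, 838 and 790 with WT marrow. The groups were far apart (1551 ± 147 against 832 ± 59.3, log2 change 0.89, SE 0.09, limma adjusted p = 0.00205), and Bpgm passed with any 1 library omitted. The summed erythroid markers were also higher in all 4 NOS-null marrow libraries, as given above, and their part in the Bpgm value was not tested. Pdk2, a relative of Pdk1, rose from 203 ± 17.6 to 281 ± 23.5 (log2 change 0.47, limma adjusted p = 0.0338), and missed the threshold when any of the same 4 libraries as for Ep300 was omitted (up to 0.11). The glucose transporter gene Slc2a3, picked after its values were seen, reached 884 in a single library, NOS-null marrow replicate 1, against 104 to 247 in the other 7.

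Of 31 further HIF targets tested, 1 rose and 3 fell, against 1.87% and 2.18% of all tested genes. Igfbp3, a binding protein for insulin-like growth factors, rose from 244 ± 89.6 to 792 ± 339 scaled reads (log2 change 1.66, SE 0.31, limma adjusted p = 0.0245). Loxl2, a collagen cross-linking enzyme, fell from 1330 ± 145 to 671 ± 150 (log2 change −1.01, limma adjusted p = 0.0146). Fam162a, a mitochondrial protein gene, fell from 613 ± 64.4 to 369 ± 62.7 (−0.74, 0.0191), and the chemokine gene Cxcl12 from 4584 ± 116 to 2408 ± 435 (−0.95, 0.00722). Vegfa, the best known vascular target, picked after its values were seen, stood at 4030 ± 438 against 4713 ± 572 with overlap (log2 change −0.22, limma adjusted p = 0.216). Cxcl12 passed with any 1 library omitted. The call of Loxl2 ended when WT marrow replicate 1 or 2 was omitted (limma adjusted p up to 0.0606), and that of Fam162a with the same 4 libraries as for Ep300 (up to 0.0774). The call of Igfbp3 ended when WT marrow replicate 1, 2 or 4 was omitted, or replicate 2 of the other group (up to 0.094).

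None of the 7 pentose phosphate genes passed with limma, at an adjusted p or at an unadjusted p under 0.05. Rpia, ribose 5-phosphate isomerase, had the smallest p of them (log2 change −0.31, limma adjusted p = 0.309). G6pdx, which opens this branch, was likewise highest in NOS-null marrow replicate 1 (1569 scaled reads, the other 7 libraries 572 to 682) and was picked after its values were seen.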

How the data were processed

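RNA of whole lung was measured in 8 libraries, 4 per group. Per the submitters' processing notes, the tools were CASAVA 1.8.2, TopHat2 2.0.13, Bowtie2 2.2.3, SAMtools 0.1.19 and Cufflinks 2.2.1, with mm10. The sources used here do not give the gene annotation, the settings, strand handling, a batch or a date. The titles of the samples set the groups, since the design text gives both groups the same marrow.

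The deposited main table holds signal values, read counts that the authors divided by 1 size factor per library (scaled reads). The deposited FPKM table was used for levels per length and as an alternative. From these, log2(value + 1) was fitted with limma 3.58.1 (trend, R 4.3.3, no covariates) over the 14008 genes with at least 10 in at least 4 libraries, and the procedure was tested on simulated data. Intervals are 95% intervals of that fit. Alternatives changed pseudocount, filter, scaling, table, weighting, the replicate block and the libraries used. Transcript copies were counted as 75-base windows shared between GENCODE M21 genes. Gene positions are from RefSeq GRCm38.p6.

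The genes and lists were chosen with earlier results of these data known. The genes named are all 34, with values per library by rule for the called gene, Hif1a and Epas1, the 6 of smallest p in each direction and the 4 of largest change without overlap. Those of other genes of the list were added after they were seen. Of the further pathway genes the called ones and the 1 of smallest p per list are named by rule, and Vhl, Hif3a, Slc2a3, Vegfa and G6pdx were added after their values were seen.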

Additional observations from a re-analysis of the deposited data

Results flagged for a closer look

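Within a group of 4, a library was marked when its gap to the nearest other value was large for the group's range by Dixon's 95% value, in the 33 tested genes and the 8 called pathway genes. Of 82 groups examined, 4 were marked, where chance marks about 1 in 20.

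Pfkfb4 stood at 715 scaled reads in NOS-null marrow replicate 1, with the other 3 libraries of the group at 323 to 359. Pgk1 stood at 2240 in the same library, with the others at 1708 to 1795. Egln3 stood at 23.6 in WT marrow replicate 4, below the others at 42.15 to 44.7. Gm5506 (Eno1b) stood at 27.2 in WT marrow replicate 2, above the others at 4.93 to 6.62.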

How the results depend on the processing

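With the other pseudocounts, filters and scalings, the FPKM table and robust limma, Tpi1 was the 1 called gene of the list and the count of all called genes was within 1.5 times of 567. With array weights 3 genes of the list were called lower. With the replicate block 0 of the list, 135 of all genes and 5 further pathway genes were called. The labels do not say whether replicate numbers pair the libraries. Correlations of deviations between same-numbered libraries were 0.0428, 0.169, −0.00266 and 0.151. Between differently numbered libraries they ran from −0.180 to 0.112, and these values cannot settle whether there was a pairing. Tpi1 stood at a limma adjusted p of 0.0585 in the fit with the replicate block. With NOS-null marrow replicates 1 and 2 both omitted, 0 genes of the list, 181 of all genes and 5 further pathway genes were called. The median of the glycolytic enzymes was then −0.22. Leaving out 1 library gave 0 to 4 of the list called higher and 0 to 2 called lower. Of all genes 71 to 798 were then called, and of the further pathway genes 3 to 11.

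Sign changes concerned genes that never passed. With array weights Slc2a1, Pdk1 and Egln3 were at −0.0012, −0.12 and −0.38, and centred on the median gene Pdk1 and Egln3 at −0.015 and −0.0070. With NOS-null marrow replicates 1 and 2 omitted, Slc2a1, Pdk1, Gpi1, Bnip3, Egln3, Adm and Kdm3a were at −0.14, −0.30, −0.039, −0.085, −0.53, −0.029 and −0.11. Leaving out 1 library gave −0.013 to 0.26 for Slc2a1, −0.10 to 0.13 for Pdk1, −0.27 to 0.24 for Egln3 and −0.042 to 0.12 for Ero1l. Low values limit Egln3 and Car9.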
